A study of Mus musculus with 29 samples.

Results

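The endoplasmic reticulum (ER) folds the proteins that a cell secretes or puts on its surface. The expression of 32 genes of this system was examined in CD4+ T cells: sensors and transcription factors of the unfolded protein response, ER chaperones, disulfide isomerases, degradation factors, the channel through which new proteins enter the ER, and the enzyme that removes their signal peptides. The genes were taken from a list by symbol and kept where at least 3 libraries held 10 or more counts, which all 32 did, out of 55414 gene identifiers in the count tables. All 32 also passed the filter on low counts of the test. Sec61g was the weakest: it was the only one to fall under 10 counts in any library (lowest, 4), and since it has near-identical copies in the genome its values are uncertain.

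The cells were CD4+ T cells purified from spleens of mice of the genotype C57BL/6-Foxp3tm1Flv/J, in which a red fluorescent protein (RFP) reports Foxp3, the transcription factor of regulatory T cells. Every group was stimulated with anti-CD3 at 1.25 µg/ml and anti-CD28 at 2.5 µg/ml in medium with 0.5 mM glucose and 50 IU/ml interleukin 2. The groups differed in TGF-beta (none or 3 ng/ml), lactic acid (none or 10 mM), time (24 or 72 h) and sorted population, with RFP-negative cells called Tcon and RFP-positive cells Treg. Tcon of every medium were sequenced at both times, and Treg at 72 h from the media that held TGF-beta, which gave 10 groups with 3 libraries each, except that 72 h Tcon without either addition comprised 2, replicates 1 and 2. The mice were male for replicate 1 and female for the others. Ages are not given in the labels, and whether replicates 2 and 3 were separate animals is not stated, so p-values measure the spread between these samples, which may be technical. Expression is given as CPM, the count of a gene relative to the TMM-scaled size of its library. CPM is not corrected for transcript length, so levels are compared within a gene and not between genes.

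When unfolded proteins build up in the ER, the chaperone BiP (Hspa5) leaves the sensors IRE1 (Ern1), ATF6 (Atf6) and PERK (Eif2ak3). IRE1 splices the messenger RNA of Xbp1, ATF6 is cut free of its membrane anchor, and both resulting factors switch on chaperone and degradation genes, while PERK slows translation. Activated lymphocytes enlarge this machinery when they divide and secrete cytokines, and antibody-secreting plasma cells depend on Xbp1 for it. Counts per gene do not separate spliced from unspliced Xbp1, and messenger RNA levels do not measure cleavage of ATF6.

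Many target genes of this response carry the ER stress element, which is CCAAT and CCACG set 9 bases apart, or the shorter ERSE-II, which is ATTGG and CCACG set 1 base apart, before their start sites. Windows of 300 bases (250 before to 50 after the start, RefSeq, GRCm38.p6) were found for 25 of the 32 genes, in 26 windows, and searched on both strands. The ER stress element was found in 8 of 26 windows (30.8%), against 39 of 32851 windows of all genes (0.119%), and ERSE-II in 2 (7.69%), against 12 (0.0365%). Both motifs contain the shorter CCACG, which alone was in 80.8% of the 26 windows and 32.8% of all windows, and the first holds CCAAT, at 80.8% and 37.4%. Another motif, the XBP1 and ATF6 site TGACGTGG, was in 0 of 26 windows and in 0.676% of all windows. These matches describe letters and not binding. The genes were listed as parts of this response, whose targets carry these motifs, so the high share among them is not a separate result. The sequences below, read in the direction of the gene, show the 9 genes whose match lies before the start, with both ends of the motif in capitals; CGTGG and ATTGG are the same ends on the other strand. They are shown because these genes include those with the largest differences described further on: Hspa5 (chr2:34771940-34772089, plus strand), Hsp90b1 (chr10:86705513-86705676, minus strand, with 2 elements), Dnajc3 (chr14:118937807-118937865, plus), Pdia6 (chr12:17266471-17266529, plus), Creld2 (chr15:88819500-88819558, plus), Calr (chr8:84847055-84847113, minus), Canx (chr11:50325780-50325838, minus), Syvn1 (chr19:6046512-6046570, plus) and, with ERSE-II, Herpud1 (chr8:94386357-94386407, plus).
Hspa5: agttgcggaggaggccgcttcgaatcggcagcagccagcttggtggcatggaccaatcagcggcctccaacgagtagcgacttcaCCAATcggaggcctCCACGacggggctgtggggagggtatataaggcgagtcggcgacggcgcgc
Hsp90b1: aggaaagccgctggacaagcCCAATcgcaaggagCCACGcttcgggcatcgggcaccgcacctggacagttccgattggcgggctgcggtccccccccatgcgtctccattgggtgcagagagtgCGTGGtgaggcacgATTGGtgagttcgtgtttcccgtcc
Dnajc3: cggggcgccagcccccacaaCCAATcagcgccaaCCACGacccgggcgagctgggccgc
Pdia6: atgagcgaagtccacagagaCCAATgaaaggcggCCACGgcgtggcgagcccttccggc
Creld2: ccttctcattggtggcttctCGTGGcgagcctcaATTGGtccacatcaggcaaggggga
Calr: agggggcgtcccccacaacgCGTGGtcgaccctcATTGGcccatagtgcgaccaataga
Canx: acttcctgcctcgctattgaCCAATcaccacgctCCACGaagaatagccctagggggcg
Syvn1: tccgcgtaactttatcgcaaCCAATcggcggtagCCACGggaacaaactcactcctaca
Herpud1: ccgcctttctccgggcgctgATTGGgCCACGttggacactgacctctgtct

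Gene counts summed to 9754511 in the shallowest and 14315313 in the deepest library (median, 12106958). The first principal component of the libraries (52.3% of the variance) separated the times. The third (7.78%) set the 6 replicate 1 libraries of 72 h apart from the other 72 h libraries. Results at 72 h are therefore also given without those 6 where they differ. Only replicate 1 came from male mice, so without those 6 every 72 h library is from female mice. Sex and other differences of replicate 1 cannot be told apart, with or without the replicate block. The labels do not say whether both times belong to 1 experiment, so time and experiment cannot be told apart. The 8 CD4 T cell markers were present in every group, with mean sums of 2729 to 3728 CPM, and Cd4 itself lay between 419 and 669 CPM. Across genes, log2 values of replicate pairs had correlations of 0.970 to 0.992, and no pair was as close as counting noise, with at least 3.28 times the chi-square per gene that counting alone gives.

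The ER genes were highest at 72 h in cells that had not received TGF-beta. The mean was highest in the 72 h Tcon with lactic acid alone for 21 of the 32 genes and in the 72 h Tcon without additions for 7. Of the other 4, Xbp1 and Spcs2 were highest in Treg with TGF-beta and lactic acid, Ern1 in Treg with TGF-beta, and Dnajb9 in 24 h Tcon with both. The lowest mean was at 24 h for 23 genes, in 72 h Tcon with TGF-beta and lactic acid for 8 and in 72 h Treg with both for 1 (Atf6). Hspa5 shows the common pattern. At 24 h its level stayed between 788 and 1099.8 CPM in all 12 libraries. At 72 h it was 2285 and 1839.8 CPM in Tcon without additions and 3293, 1955 and 3405 CPM with lactic acid (replicates in order). With TGF-beta it was 1382, 897 and 975 CPM, and with TGF-beta and lactic acid 1211, 738 and 687 CPM. All 5 libraries without TGF-beta were above all 12 with it at 72 h, and among the latter replicate 1 was the highest in each group.

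**Figure D1:**
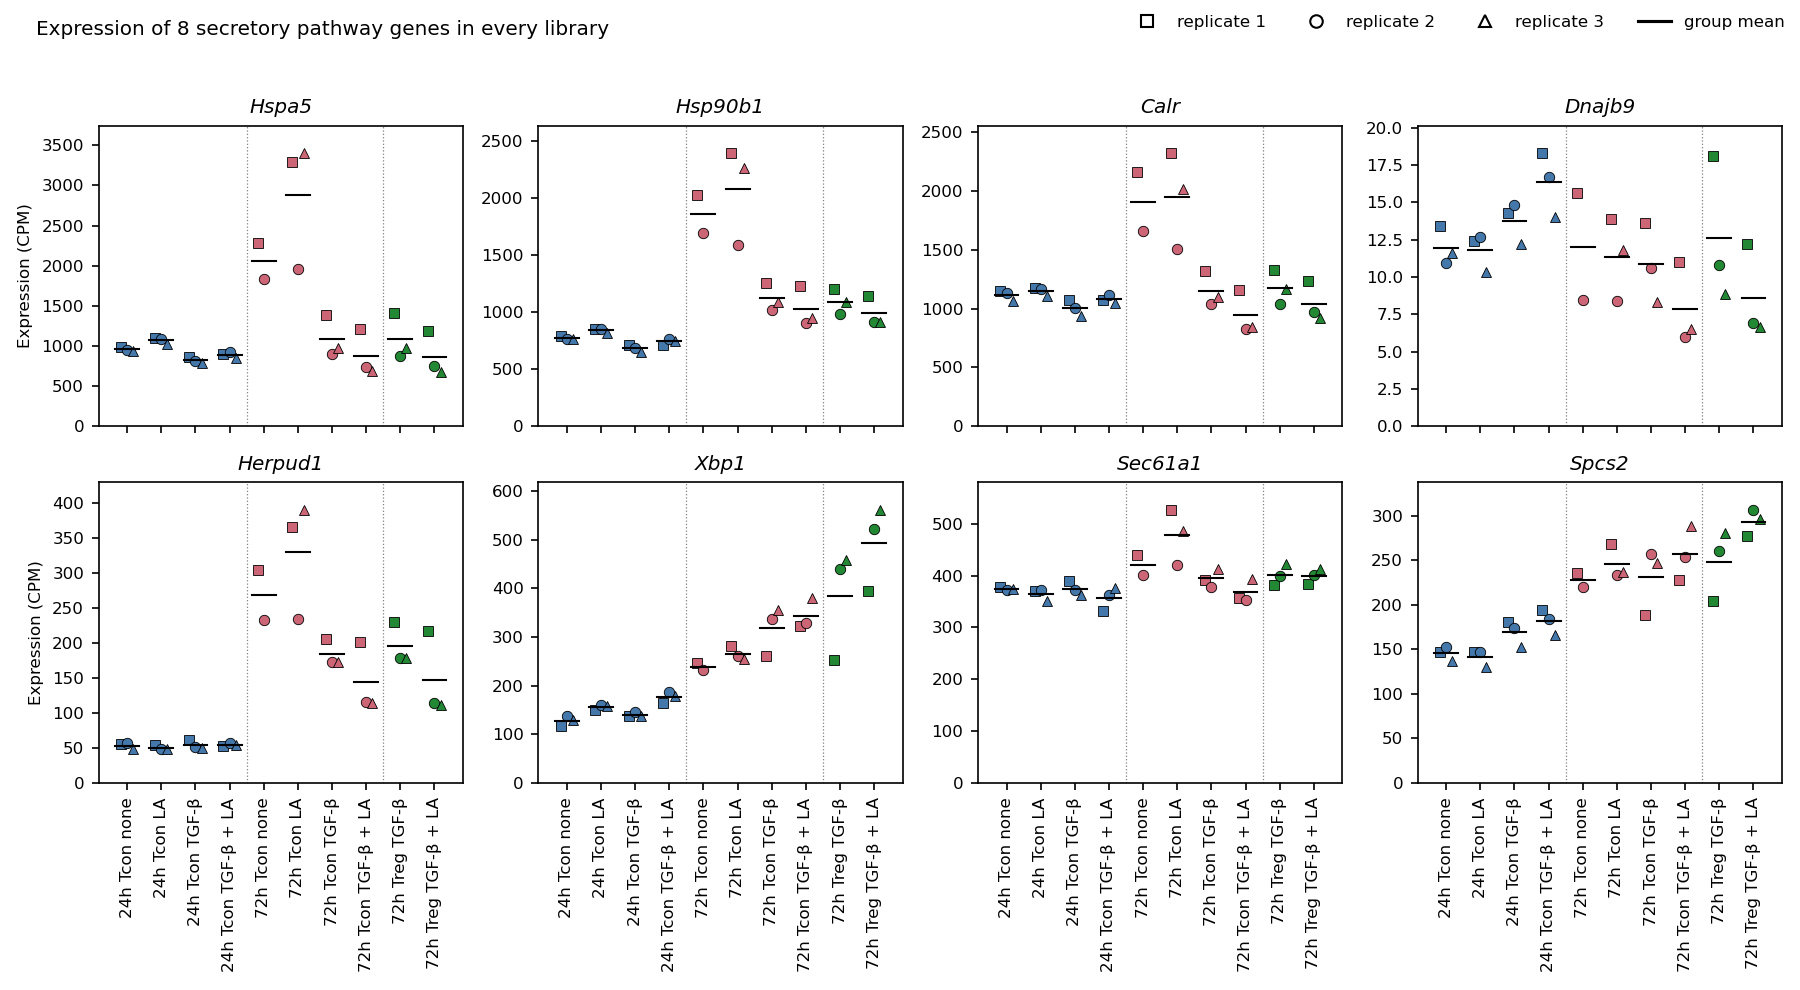
Expression (CPM, linear axes from 0) of 8 of the 32 genes in each of the 29 libraries, by group; squares, circles and triangles are replicates 1, 2 and 3, lines are group means, blue is 24 h Tcon, red 72 h Tcon and green 72 h Treg, and LA is lactic acid. Hspa5, Hsp90b1, Calr and Herpud1 peak at 72 h without TGF-beta, while Xbp1 is highest in the Treg given both, at 394 to 562 CPM.

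Between 24 and 72 h of culture without additions, 29 of the 32 genes rose and 0 fell (edgeR, adjusted p under 0.05; 45.5% of all 14375 genes tested were called in this comparison, 27.1% as higher and 18.4% as lower). Their median log2 fold change was 0.84, against 0.05 over all genes. With lactic acid alone 29 rose and 0 fell (46.6% of all genes called, 26.5% as higher and 20.1% as lower), with a median of 0.77. In both media every 72 h library lay above every 24 h library for 31 of the 32 genes, Dnajb9 being the exception. The share of all genes was counted by a looser rule, higher at 72 h in every pair of libraries with the same number. By that rule 31 of the 32 genes were higher in each medium, against 41.2% of all genes without additions and 35% with lactic acid. The p-values are those of a fit over all 29 libraries. Markers of other cells moved between the times as well. Without additions the sum of 5 plasma cell markers was between 0.963 and 1.42 CPM at 24 h and between 7.91 and 8.22 CPM at 72 h. The sum of 8 myeloid markers was between 22.2 and 27.6 CPM and then between 45.9 and 82.8 CPM, and that of 6 CD8 and NK markers between 104.2 and 127.3 CPM and then between 22.1 and 24.8 CPM. Ighm, the immunoglobulin heavy chain gene of B cells, was between 230.1 and 249 CPM and then between 80.8 and 118 CPM. With lactic acid the plasma cell sum was between 0.729 and 2.05 CPM and then between 6.35 and 7.36 CPM, and the myeloid sum between 25 and 29.1 CPM and then between 43.5 and 75.6 CPM. The CD8 and NK sum fell with lactic acid too, from 125.6 to 148.9 CPM to 13.3 to 26.5 CPM. The sum of 8 B cell markers fell from 217.3 to 236.9 CPM to 104.8 to 136.5 CPM. The plasma cell and myeloid sums were thus higher at 72 h in both media. Most of the first was Sdc1, and no library exceeded 0.913 CPM of any other plasma cell marker. Most of the second was Cst3, and no library exceeded 5.37 CPM of any other myeloid marker. Whether such cells had a part in the rise of the ER genes was not tested.

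Among the sensors and factors, Ern1, Atf6 and Xbp1 all rose in both media. Ern1, the IRE1 sensor, went from 9.93, 9.29 and 11.7 to 27 and 16 CPM without additions, with no overlap between the times and a log2 fold change of 1.06 ± 0.31 SE, edgeR adjusted p = 0.00875. Xbp1, the factor downstream of it, went from 116, 138 and 129.5 to 246 and 232 CPM, a change of 0.90 ± 0.18 SE, edgeR adjusted p = 0.000236. In the BiP system 7 of 8 genes rose in both media. Hsp90b1, the ER form of Hsp90, went from 789.6, 763 and 766 to 2031 and 1693 CPM, a log2 change of 1.27 ± 0.15 SE, edgeR adjusted p = 3.57e-07. Dnajb9, a J-domain partner that returns BiP to IRE1, was the exception: its 13.4, 10.9 and 11.6 CPM at 24 h overlapped its 15.6 and 8.44 CPM at 72 h.

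All 5 disulfide isomerases and both lectin chaperones rose in both media. Creld2, a disulfide isomerase of the stress response, had one of the larger rises: 57.9, 55.3 and 47.2 CPM at 24 h and 169 and 142 CPM at 72 h, 1.53 ± 0.20 SE, edgeR adjusted p = 1.56e-06 on the log2 scale. With lactic acid it went from 55.1, 55.7 and 51.4 to 218, 121 and 199 CPM, with replicate 2 well below the others at 72 h. Calr, which holds glycoproteins in the folding cycle, went from 1149, 1131 and 1065 to 2158 and 1656 CPM, a log2 change of 0.77 ± 0.17 SE, edgeR adjusted p = 0.000643. Every 72 h library of these genes without TGF-beta lay above every 24 h library of the same medium.

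In ER-associated degradation 5 of 6 genes rose in both media, among them the gene with the largest rise of all 32. Herpud1, which gathers the degradation complex at the membrane, went from 55, 56.3 and 47.9 to 303 and 232 CPM, 2.33 ± 0.25 SE, edgeR adjusted p = 1.14e-07 in log2. With lactic acid it went from 53.5, 48.2 and 48.9 to 365, 234 and 390.0 CPM (2.71 ± 0.24, edgeR adjusted p = 4.1e-09). Sel1l, the adaptor of the ubiquitin ligase, went from 96.6, 87.1 and 97.7 to 362 and 213 CPM, 1.61 ± 0.34 SE, edgeR adjusted p = 0.000472, with replicate 1 far above replicate 2 at 72 h. Its log2 change with lactic acid was 1.73 ± 0.31 (edgeR adjusted p = 8.73e-05). Derl2, a membrane protein of the same pathway, was at 56.4 to 57 CPM and then at 72.9 and 57.4 CPM, a change of 0.20 ± 0.10 that did not pass (edgeR adjusted p = 0.0989). Of the channel and its TRAP partners 5 of 6 rose in each medium. Sec61a1, the pore itself, rose in the medium with lactic acid (0.39 ± 0.08 SE, edgeR adjusted p = 0.000313) and had 0.17 ± 0.09 without additions (edgeR adjusted p = 0.125). Its 72 h values of 441 and 401 CPM lay above its 24 h values of 378, 372 and 373 CPM. Both signal peptidase subunits rose, with Spcs2 at 147, 152 and 137 CPM and then 236 and 219.6 CPM (0.65 ± 0.13 SE, edgeR adjusted p = 0.000381).

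With TGF-beta in the medium the rise over time was smaller and uneven. In Tcon with TGF-beta alone 14 genes rose and 1 fell (52.8% of all genes called, 28% as higher and 24.8% as lower), with a median log2 fold change of 0.32. In Tcon with TGF-beta and lactic acid 8 rose and 4 fell (47.4% of all genes called, 24.4% as higher and 23% as lower), with a median of 0.06. Hspa5, at 869, 810.1 and 788 CPM at 24 h with TGF-beta and 1382, 897 and 975 CPM at 72 h, did not pass (0.40 ± 0.23 SE, edgeR adjusted p = 0.152). Herpud1 still rose, from 61.1, 51.8 and 50.4 to 205, 173 and 172 CPM with TGF-beta (1.75 ± 0.23 SE, edgeR adjusted p = 1.62e-06) and by 1.40 ± 0.23 with lactic acid as well (edgeR adjusted p = 2.85e-05). Xbp1 rose in both, from 137, 145 and 138 to 260.0, 338 and 355 CPM with TGF-beta (1.18 ± 0.16 SE, edgeR adjusted p = 2.23e-06) and by 0.96 ± 0.16 with both (edgeR adjusted p = 3.14e-05). Sel1l rose by 1.05 ± 0.31 with TGF-beta (edgeR adjusted p = 0.00662), a call that was lost without the 72 h TGF-beta replicate 1 library. Edem1, a lectin that hands glycoproteins to degradation, rose with both additions, from 158, 172 and 191 to 266, 278 and 277 CPM (0.65 ± 0.07 SE, edgeR adjusted p = 1.49e-07).

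The genes that fell over time with TGF-beta belonged to the BiP system and to TRAP, the complex beside the channel. In Tcon with both additions Dnajb9 fell from 18.3, 16.7 and 14 to 11, 5.96 and 6.51 CPM (-1.05 ± 0.29 SE, edgeR adjusted p = 0.00454). Hyou1, which exchanges the nucleotide of BiP, fell from 350.0, 376 and 352 to 304, 240.5 and 232 CPM (-0.48 ± 0.13 SE, edgeR adjusted p = 0.00537). Neither gene's libraries overlapped between the times. Dnajc3, a J-domain partner that also restrains PERK, fell by 0.35 on the log2 scale (edgeR adjusted p = 0.012). Ssr2, a TRAP subunit, was at 144, 144 and 129 CPM and then at 102, 107 and 116 CPM (-0.36 ± 0.10 SE, edgeR adjusted p = 0.00407). With TGF-beta alone it was the 1 gene that fell (-0.25 ± 0.10 SE, edgeR adjusted p = 0.0357), a call lost under several other settings.

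**Figure D2:**
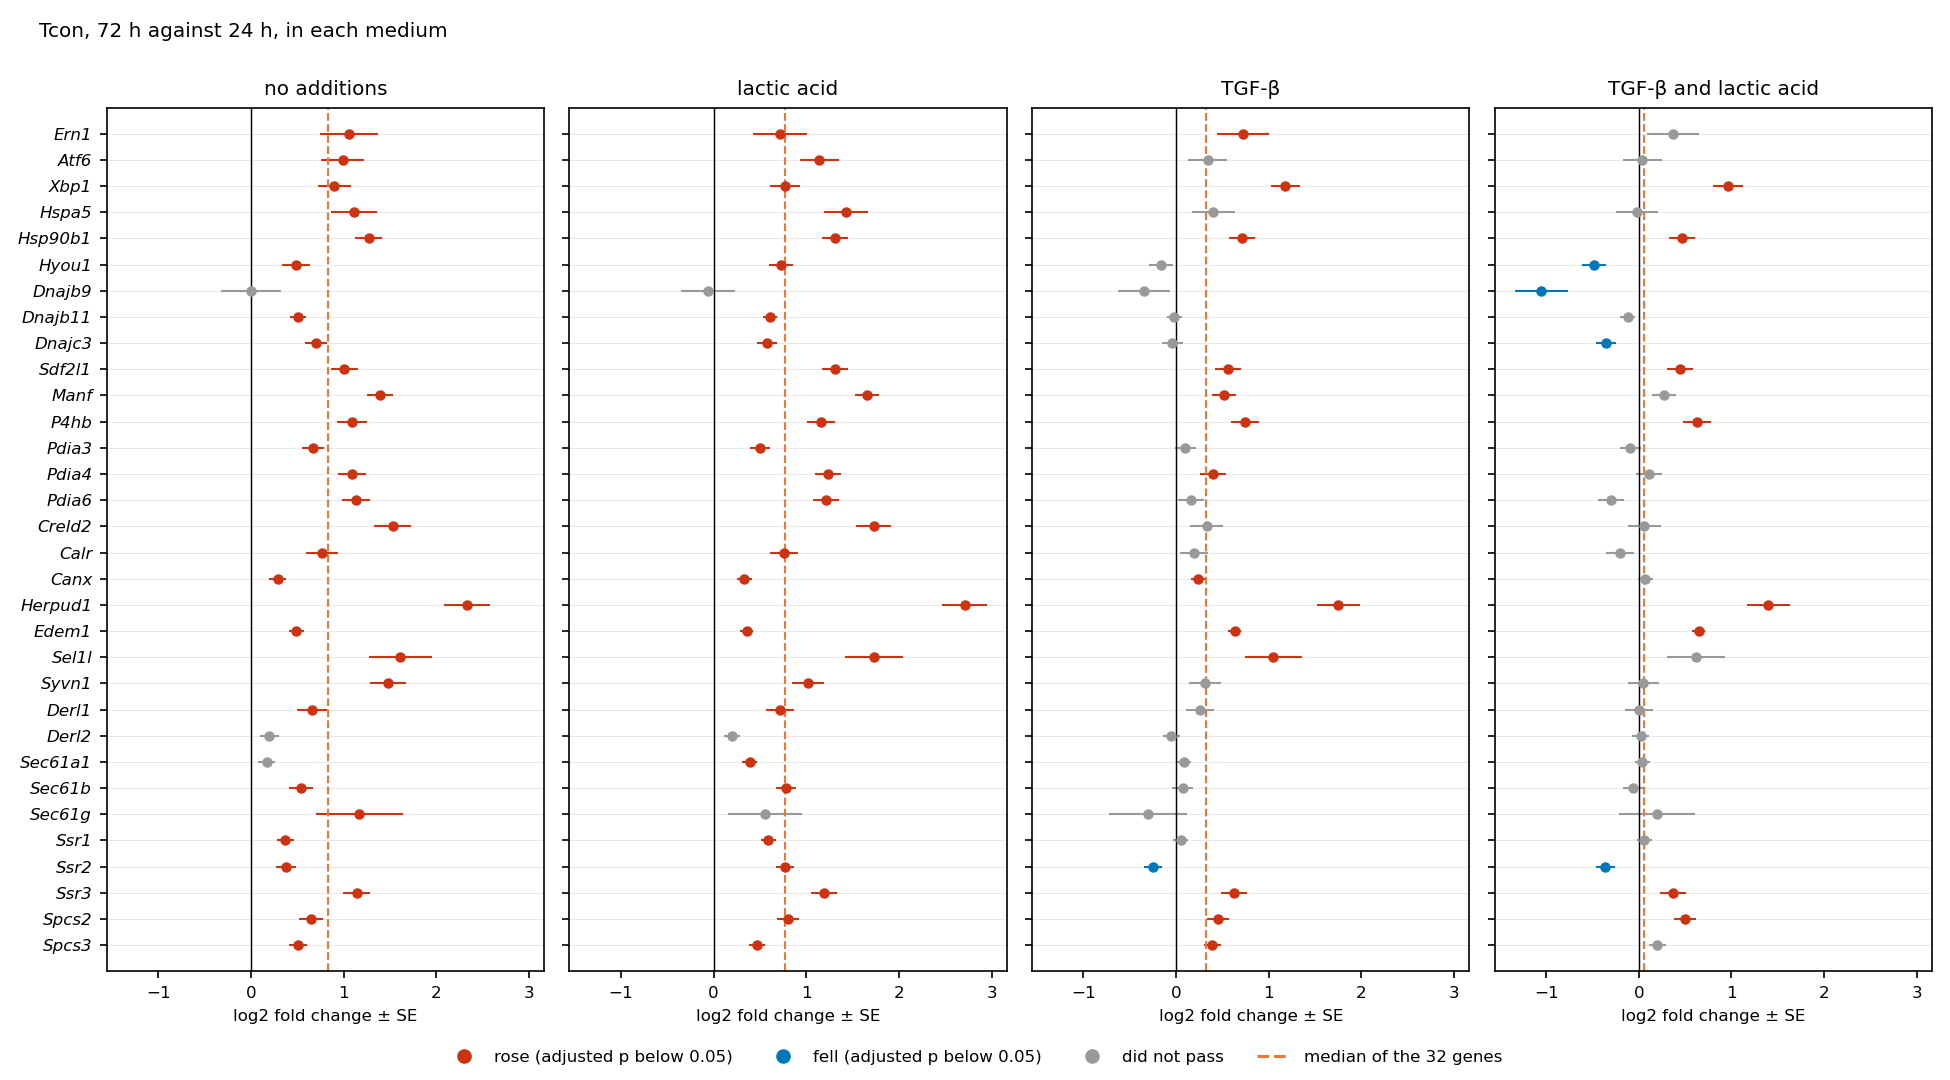
Log2 fold change (± SE) of each of the 32 genes between 24 and 72 h in Tcon, 1 panel per medium, ordered by role from sensors at the top to signal peptidase at the bottom; red rose, blue fell, grey did not pass, and the dashed line is the median of the 32. The medians are 0.84 without additions, 0.77 with lactic acid, 0.32 with TGF-beta and 0.06 with both.

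At 72 h TGF-beta lowered the ER genes in Tcon. Without lactic acid 20 of 32 fell and 0 rose (24.5% of all genes called, 12.8% as higher and 11.7% as lower), with a median log2 fold change of -0.56 against -0.03 over all genes; 12 fell when the 72 h replicate 1 library without additions was left out (22.3% of all genes called), which leaves 1 library in that group, assumed to vary like the others. With these 2 groups fitted alone, 8 of the 32, all lower, and 994 of all 14375 genes were called. With lactic acid in both arms, where each group had 3 libraries, 25 fell and 0 rose (45% of all genes called, 22.5% as higher and 22.5% as lower), with a median of -0.78 against -0.02. Without all 6 of the 72 h replicate 1 libraries 18 fell and Xbp1 rose in the first comparison (33.9% of all genes called), and 26 fell and Xbp1 rose in the second (52.3%). In these sums over many cells, fewer cells that express a gene and less RNA per cell cannot be told apart.

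The 3 sensors and factors differed among themselves. Atf6 went from 119 and 78.5 CPM without TGF-beta to 57.7, 47 and 44.2 CPM with it, without overlap, -0.99 ± 0.23 SE, edgeR adjusted p = 0.00211 in log2, and this call was lost without the 72 h replicate 1 library that had no additions. With lactic acid in both arms it went from 116, 75.4 and 101 to 52.8, 30.8 and 37.5 CPM (-1.27 ± 0.21 SE, edgeR adjusted p = 3.35e-05). Ern1 did not pass, at 0.08 ± 0.31 and -0.00 ± 0.28 (edgeR adjusted p = 0.88 and 0.996). Xbp1 lay higher with TGF-beta in every library of both comparisons: 246 and 232 CPM without and 260.0, 338 and 355 CPM with it, and with lactic acid 282, 261 and 254 and 322, 329.6 and 379.6 CPM. Its log2 differences of 0.41 ± 0.18 and 0.37 ± 0.16 did not pass (edgeR adjusted p = 0.101 and 0.0594); with the replicate number as a block the second did, at 0.36, adjusted p = 0.0115. Without the 6 replicate 1 libraries of 72 h both passed, at 0.58 ± 0.10 (edgeR adjusted p = 0.000259) and 0.46 ± 0.08 (edgeR adjusted p = 0.000117); the first rests on 1 library without additions, assumed to vary like the other groups.

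Of the BiP system 7 of 8 genes fell in each comparison, with medians of -0.78 and -1.11. Hspa5, with the values given above, fell by 0.93 on the log2 scale without lactic acid (SE 0.25; edgeR adjusted p = 0.00955) and by 1.71 with it (SE 0.24; edgeR adjusted p = 3.68e-06), the largest fall of all 32 genes there. Hsp90b1 went from 2031 and 1693 to 1259, 1016 and 1088 CPM (-0.73 ± 0.15 SE, edgeR adjusted p = 0.000775), and with lactic acid from 2397, 1587 and 2268 to 1234, 903 and 951 CPM (-1.02 ± 0.14, edgeR adjusted p = 2.38e-06). Manf, a small secreted protein that binds BiP, fell in both comparisons (-0.93 and -1.39), as did Sdf2l1, which keeps BiP clients soluble (-0.90 and -1.21), without overlap of the libraries in either comparison. Dnajb9 was at 15.6 and 8.44 CPM without and 13.6, 10.6 and 8.32 CPM with TGF-beta and did not pass (-0.14 ± 0.32 SE, edgeR adjusted p = 0.794). With lactic acid it differed by -0.52 ± 0.29 (edgeR adjusted p = 0.149; 0.00167 with the block).

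All 5 disulfide isomerases fell with lactic acid in the medium and 4 of 5 without it. Creld2 went from 169 and 142 to 76.6, 64.6 and 59.3 CPM (-1.21 ± 0.20 SE, edgeR adjusted p = 7.49e-05), and with lactic acid from 218, 121 and 199 to 70.4, 51 and 54.6 CPM (-1.61 ± 0.19, edgeR adjusted p = 2.81e-07). Pdia6 went from 721 and 576 to 342, 269 and 306 CPM (-1.09 ± 0.15 SE, edgeR adjusted p = 1.31e-05), and with lactic acid from 872, 547 and 788 to 289, 231 and 250.5 CPM (-1.52 ± 0.14, edgeR adjusted p = 1.37e-08). Neither gene overlapped between the arms. P4hb, the founding member of the family, had -0.38 ± 0.16 without lactic acid (edgeR adjusted p = 0.0954; 0.00156 with the block). Of the lectin chaperones, Calr fell from 2158 and 1656 to 1318, 1038 and 1094 CPM (-0.73 ± 0.17 SE, edgeR adjusted p = 0.00225) and, with lactic acid, from 2323, 1508 and 2013 to 1158, 827 and 839.8 CPM (-1.05 ± 0.15, edgeR adjusted p = 6.99e-06). Canx, its membrane-bound relative, differed less, by -0.15 ± 0.09 and -0.35 ± 0.08 (edgeR adjusted p = 0.249 and 0.00123).

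In ER-associated degradation 2 of 6 genes fell without lactic acid and 4 of 6 with it. Herpud1 went from 303 and 232 to 205, 173 and 172 CPM without lactic acid, below in every library but short of the threshold (-0.55 ± 0.25 SE, edgeR adjusted p = 0.115; 0.011 with the block). With lactic acid it went from 365, 234 and 390.0 to 201, 116 and 114 CPM and passed (-1.20 ± 0.23 SE, edgeR adjusted p = 0.000176). Syvn1, the ubiquitin ligase, fell by 0.90 in both (edgeR adjusted p = 0.00104 and 0.000219). Edem1 fell by 0.25 without lactic acid (edgeR adjusted p = 0.03) and was at -0.06 ± 0.07 with it (edgeR adjusted p = 0.503). Derl2 did not pass in either (-0.21 ± 0.10 and -0.06 ± 0.09).

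At the channel 4 of 6 genes fell without and 5 of 6 with lactic acid. All 3 TRAP subunits fell in both, with log2 changes of -0.79 and -1.07 for Ssr2, -0.39 and -0.63 for Ssr1 and -0.50 and -0.75 for Ssr3. Sec61a1 was at 441 and 401 CPM without and 392, 379 and 413 CPM with TGF-beta and did not pass (-0.09 ± 0.09 SE, edgeR adjusted p = 0.492), whereas with lactic acid it went from 527, 419.6 and 486 to 356, 353 and 394 CPM (-0.38 ± 0.08 SE, edgeR adjusted p = 0.000485). Of the signal peptidase subunits Spcs3 fell in both, at -0.33 and -0.49 (edgeR adjusted p = 0.014 and 8.2e-05). Spcs2, in contrast, was at 236 and 219.6 CPM without and 188, 257 and 247 CPM with TGF-beta (0.02 ± 0.13) and at 268, 233 and 237 and 228, 254 and 288 CPM with lactic acid (0.06 ± 0.12), overlapping in both.

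**Figure D3:**
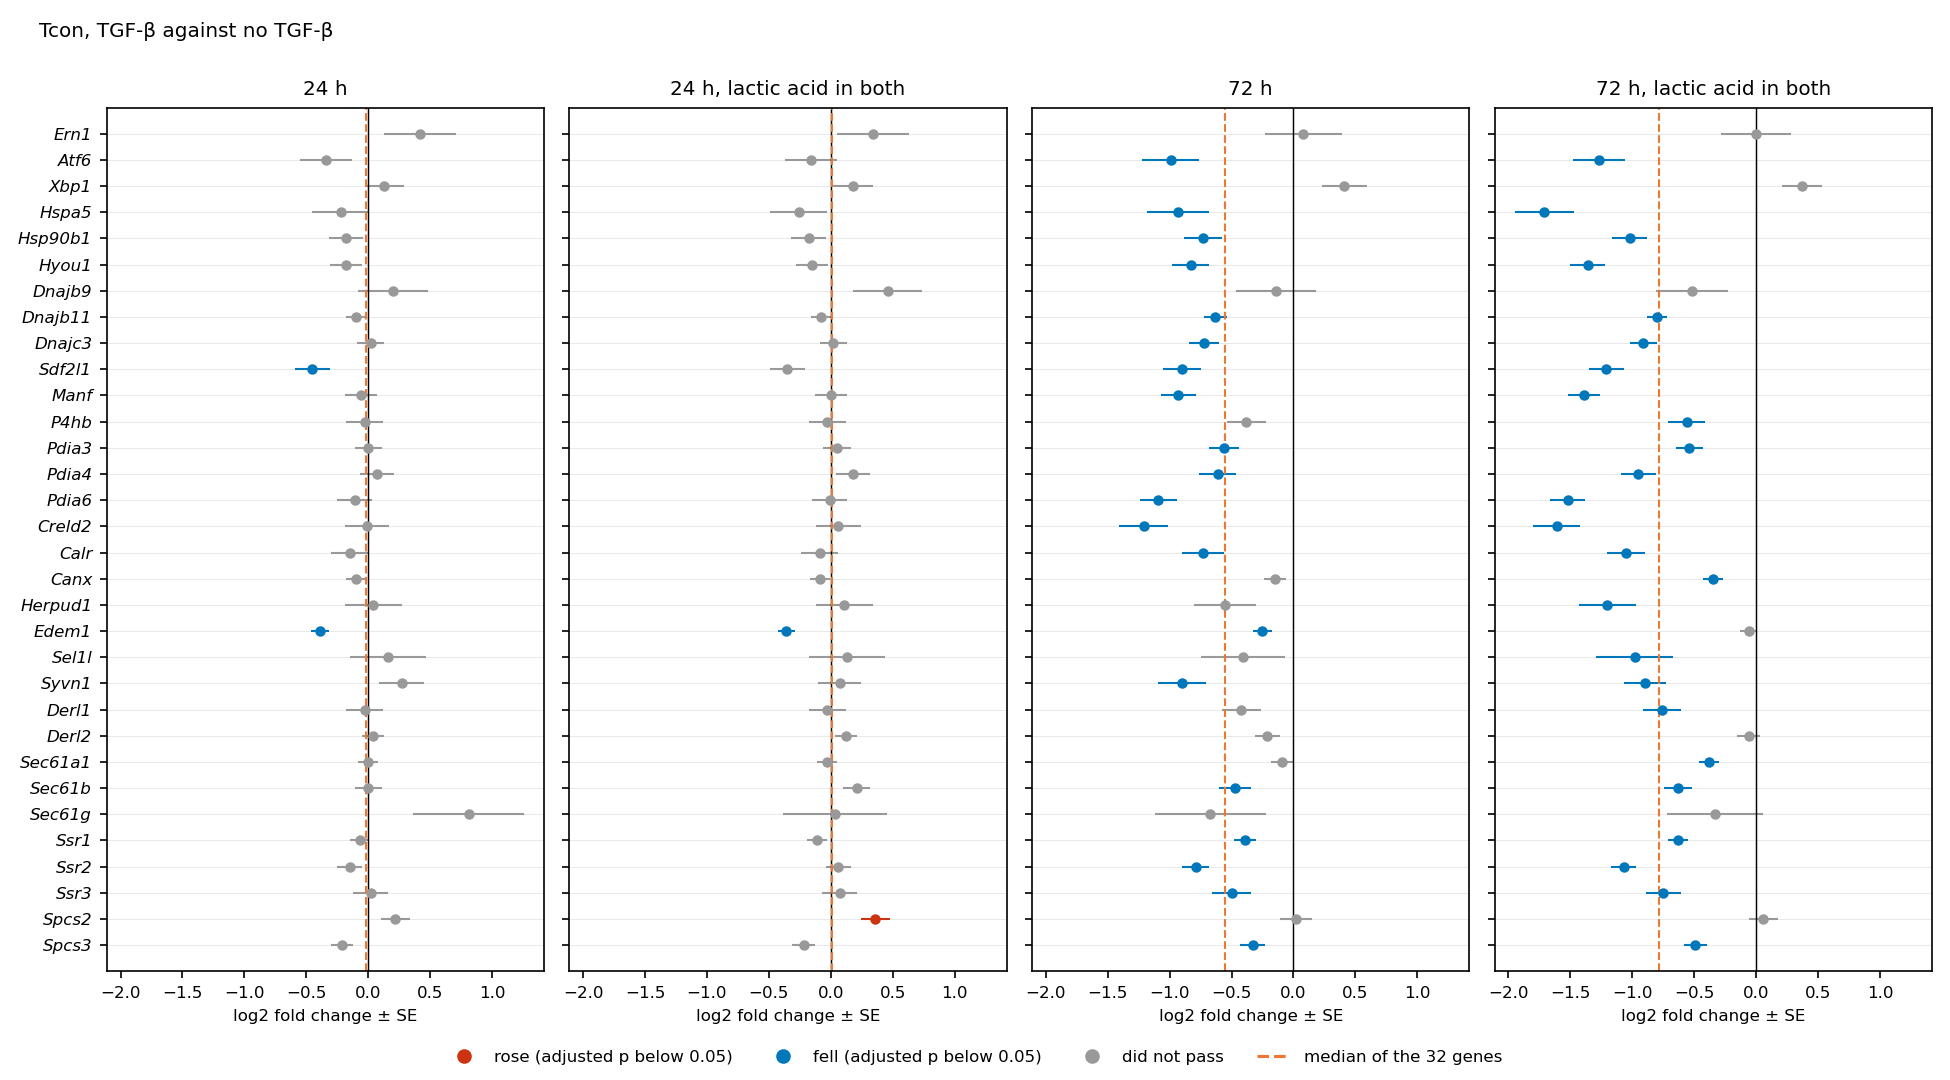
Log2 fold change (± SE) of each of the 32 genes with TGF-beta against without it in Tcon, at 24 h and at 72 h, without and with lactic acid in both arms; red rose, blue fell, grey did not pass, and the dashed line is the median of the 32. The medians are -0.02 and 0.01 at 24 h and -0.56 and -0.78 at 72 h, and Xbp1 and Spcs2 lie on the higher side in all 4 panels.

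Markers of other cells also moved at 72 h. The sum of 8 myeloid markers was 45.9 to 82.8 CPM in Tcon without additions and 43.5 to 75.6 CPM with lactic acid, against 31 to 37.8 CPM in both Tcon groups with TGF-beta, and most of it was Cst3 (18.8 to 78.7 CPM over all libraries), while Csf3r and Siglech were at 0 in all of these groups. The sum of 5 plasma cell markers was 7.91 to 8.22 and 6.35 to 7.36 CPM without TGF-beta and 0.559 to 1.81 CPM with it. Sdc1 made up most of it (up to 8.04 CPM). Of the others, Iglv1 was at 0 in Tcon without additions, Jchain and Tnfrsf17 in Tcon with lactic acid, and no library exceeded 0.245 CPM of Mzb1. The sum of 6 CD8 and NK markers moved the other way, from 22.1 to 24.8 CPM without TGF-beta to 31.3 to 72.6 CPM with it, and with lactic acid from 13.3 to 26.5 CPM to 63.6 to 111.3 CPM. Ighm overlapped without lactic acid (80.8 to 118 and 83 to 102 CPM) and was higher with TGF-beta when lactic acid was present (102 to 129.7 and 183 to 189 CPM). The part of these cells in the fall of the ER genes was not tested.

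At 24 h TGF-beta had changed few of the ER genes in the fit over all libraries. Without lactic acid 0 rose and 2 fell (11.3% of all genes called, 7.96% as higher and 3.35% as lower), with a median of -0.02; with the replicate number as a block 2 rose (Ern1 and Syvn1) and 5 fell (Atf6, Sdf2l1, Edem1, Ssr2 and Spcs3), with 31.7% of all genes called. Edem1 fell from 224, 218 and 215 to 165, 167 and 169 CPM (-0.39 ± 0.07 SE, edgeR adjusted p = 0.000796) and Sdf2l1 from 77.4, 83.5 and 64 to 61.2, 53.1 and 50.2 CPM (-0.45 ± 0.14 SE, edgeR adjusted p = 0.0412), both without overlap; the call of Sdf2l1 was lost when any 1 of 4 of the 6 libraries was left out. With lactic acid in both arms 1 rose and 1 fell (12.4% of all genes called, 8.06% as higher and 4.38% as lower), and with the block 3 rose (Ern1, Dnajb9 and Spcs2) and 3 fell (Sdf2l1, Edem1 and Spcs3), with 32.4% of all genes called. Edem1 again fell, from 221, 226 and 221 to 158, 172 and 191 CPM (-0.36 ± 0.07 SE, edgeR adjusted p = 0.00169). Spcs2 rose from 147, 147 and 131 to 195, 184 and 166 CPM (0.36 ± 0.12 SE, edgeR adjusted p = 0.0494), a call lost when any 1 of the 6 libraries was left out. With the compared groups fitted alone, 7 genes were called without lactic acid (3792 of 14375 genes) and 4 with it (3314). Some markers of other cells were lower as well: the 6 CD8 and NK markers summed to 104.2 to 127.3 CPM without and 15.5 to 20 CPM with TGF-beta, and with lactic acid to 125.6 to 148.9 and 17.4 to 25.5 CPM, mostly Eomes. Ighm was at 230.1 to 249 and 128 to 132 CPM, and with lactic acid at 215 to 234 and 135 to 151 CPM. The sum of 8 myeloid markers was higher with TGF-beta, at 22.2 to 27.6 and 28.6 to 31.4 CPM. With lactic acid it was at 25 to 29.1 and 31.6 to 35.3 CPM. The part of these cells in the TGF-beta differences at 24 h was not tested. Hspa5 lay lower with TGF-beta in every library at 24 h, at 869, 810.1 and 788 CPM against 984, 944 and 941 CPM. Its log2 difference of -0.22 ± 0.23 did not pass (edgeR adjusted p = 0.599). This SE rests on 1 spread of the gene estimated over all 29 libraries. The SD of Hspa5 was 23.8 CPM without and 41.9 CPM with TGF-beta at 24 h, and 260.8 CPM with TGF-beta at 72 h.

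The difference between the times in the TGF-beta effect was tested as an interaction. Without lactic acid 9 genes had a more negative effect at 72 h and 0 a more positive one (5.73% of all genes called), with a median difference of -0.54; with the block there were 19 (19.4% of all genes called). The 9 were Dnajb11, Dnajc3 and Manf of the BiP system, Pdia3, Pdia4, Pdia6 and Creld2 of the isomerases, Syvn1 and Ssr2. Of these Creld2 had the largest difference, at -1.21 ± 0.27 SE, edgeR adjusted p = 0.00793. Without the 72 h replicate 1 library that had no additions, 3 were called (Dnajb11, Manf and Ssr2; 4.07% of all genes called). With lactic acid 21 genes had a more negative effect at 72 h and 0 a more positive one (14.4% of all genes called), with a median of -0.84. Creld2 again had the largest difference (-1.66 ± 0.26 SE, edgeR adjusted p = 0.000125), followed by Pdia6 (-1.50 ± 0.20 SE, edgeR adjusted p = 1.86e-05) and Hspa5 (-1.46 ± 0.33 SE, edgeR adjusted p = 0.00392). Edem1, which already fell at 24 h, had a difference of 0.29 ± 0.10 in the other direction (edgeR adjusted p = 0.0616; 0.0192 with the block).

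Acidity is in the title of the study, and lactic acid was its source here. With all 29 libraries and no replicate block, lactic acid changed none of the 32 genes past the threshold; the block and the fits without some libraries, given below, did call genes at 72 h. At 24 h it changed 0 without TGF-beta (0.0835% of all genes called; 1 of 32 had an unadjusted p under 0.05) and 0 with it (0.23%; 2 of 32), in edgeR as in DESeq2. With the replicate number as a block 0 passed as well (4.27% and 6.7% of all genes called). All of these fits estimate the spread of a gene over both times, so the spread at 72 h also entered the p-values at 24 h. The 2 genes with the smallest p in both media were Dnajc3 and Xbp1. Dnajc3 was at 139, 133 and 132 CPM without and 162, 164 and 149 CPM with lactic acid (0.24 ± 0.11 SE, edgeR adjusted p = 0.673), and Xbp1 at 116, 138 and 129.5 and 149, 160.2 and 159 CPM (0.29 ± 0.16 SE, edgeR adjusted p = 0.769). With TGF-beta in both arms Dnajc3 was at 142, 136 and 132 and 156, 161 and 165 CPM and Xbp1 at 137, 145 and 138 and 163, 188 and 179 CPM, log2 differences of 0.23 ± 0.11 and 0.33 ± 0.16 (edgeR adjusted p = 0.59 and 0.596). In both media both genes lay above in every pair of libraries with the same number. Of all 32 genes, 12 were higher and 5 lower in all 3 pairs without TGF-beta (22.9% and 24.1% of all genes). With TGF-beta 15 were higher and 1 was lower (24.5% and 22.5% of all genes).

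At 72 h the median of the 32 lay on the higher side without TGF-beta and on the lower side with it. Without TGF-beta, 0 of 32 were called (0.0696% of all genes; 4 had an unadjusted p under 0.05) by edgeR and 0 by DESeq2, with a median log2 difference of 0.12 and 23 of 32 on the higher side. The 2 smallest p-values were those of the TRAP subunits Ssr1 (326 and 359 CPM without and 396, 373 and 435 CPM with lactic acid, 0.23 ± 0.09 SE, edgeR adjusted p = 0.477) and Ssr2 (178 and 203 and 213, 216 and 253 CPM, 0.26 ± 0.11 SE, edgeR adjusted p = 0.502), both higher in every library with lactic acid. With the replicate number as a block 1 gene passed (3.42% of all genes called), Hspa5, at 0.52, adjusted p = 0.038 against 0.48 ± 0.26 without the block. In Tcon with TGF-beta 0 of 32 were called (2.16% of all genes; 1 with an unadjusted p under 0.05) by edgeR and 0 by DESeq2, with a median of -0.17 and 27 of 32 on the lower side. The 2 smallest p-values were those of Canx (980.2, 1031 and 1093 CPM without and 947, 821 and 983 CPM with lactic acid, -0.17 ± 0.08 SE, edgeR adjusted p = 0.321) and Spcs3 (299, 328 and 352 and 303, 262 and 299 CPM, -0.18 ± 0.09 SE, edgeR adjusted p = 0.359).

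The libraries at 72 h were taken to pair by replicate number. Within such pairs lactic acid went with lower expression of many ER genes when TGF-beta was present. The pairing is an assumption: in Tcon with TGF-beta, same-numbered pairs correlated at 0.18 to 0.57 in their deviations from group means. Pairs with different numbers reached 0.24. In Tcon with TGF-beta 19 of the 32 genes were lower with lactic acid in all 3 pairs, against 22.9% of all genes tested. In all 3 pairs 2 were higher, against 22.5% of all genes. With the block 7 fell and 0 rose (15.4% of all genes called): Atf6, Dnajb9, Pdia6, Calr, Sel1l, Derl1 and Ssr3. Calr, at 1318, 1038 and 1094 CPM without and 1158, 827 and 839.8 CPM with lactic acid, had -0.30, adjusted p = 0.00358 with the block and -0.29 ± 0.15 without it. Sel1l, at 313, 171 and 165 and 231, 119 and 121 CPM, had -0.47, adjusted p = 0.00495. Herpud1, at 205, 173 and 172 and 201, 116 and 114 CPM, was lower in all pairs, nearly level in replicate 1, and missed the threshold (-0.39, adjusted p = 0.0547). Without all 6 of the 72 h replicate 1 libraries 3 fell (Calr, Sel1l and Herpud1; 5.73% of all genes called), Herpud1 by 0.59 (edgeR adjusted p = 0.0219).

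In Treg, all of which had received TGF-beta, the median again lay on the lower side. Without the block 0 of 32 were called (3.51% of all genes; 3 with an unadjusted p under 0.05) by edgeR and 0 by DESeq2, with a median of -0.14. The 2 smallest p-values were those of Edem1 (249, 258 and 253 CPM without and 281, 300.0 and 301 CPM with lactic acid, 0.22 ± 0.07 SE, edgeR adjusted p = 0.115) and Xbp1 (253, 440.4 and 459 and 394, 522 and 562 CPM, 0.36 ± 0.16 SE, edgeR adjusted p = 0.239), both higher with lactic acid in all 3 pairs. With the block 2 rose and 10 fell (19.7% of all genes called). The 2 were Xbp1, at 0.37, adjusted p = 0.0271, and Edem1, at 0.22, adjusted p = 0.026. The 10 were Ern1, Atf6, Hyou1, Dnajb9, P4hb, Pdia6, Herpud1, Sel1l, Syvn1 and Derl1. Dnajb9, at 18.1, 10.8 and 8.86 CPM without and 12.2, 6.94 and 6.64 CPM with lactic acid, had the largest fall of these 10 (-0.55, adjusted p = 0.00547). Hspa5 went from 1407, 871 and 978 to 1184, 748 and 671 CPM, lower in all 3 pairs, and did not pass (-0.33, adjusted p = 0.0539 with the block). Over all 32 genes 16 were lower in all 3 pairs, against 21.6% of all genes. The 4 that were higher in all 3 pairs, against 26.4% of all genes, were Xbp1, Pdia4, Edem1 and Spcs2. Without all 6 of the 72 h replicate 1 libraries Herpud1 fell by 0.66 (edgeR adjusted p = 0.00807) and Edem1 rose by 0.23 (edgeR adjusted p = 0.0364), with 7.92% of all genes called.

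Markers of B cells and of CD8 and NK cells also differed with lactic acid at 72 h. Ighm was at 83 to 102 CPM in Tcon with TGF-beta and 183 to 189 CPM with TGF-beta and lactic acid, and at 98.1 to 148 CPM and 254 to 295 CPM in Treg. Of the other B cell genes, Cd79b reached 4.06 CPM and Igkc 2.82 CPM over all libraries, and Cd79a, Ms4a1, Pax5 and Cd22 stayed under 1 CPM. The sum of 6 CD8 and NK markers was 31.3 to 72.6 CPM and 63.6 to 111.3 CPM in the same Tcon groups, mostly Eomes, which T cells can express as well. The part of these cells in the lactic acid differences was not tested.

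**Figure D4:**
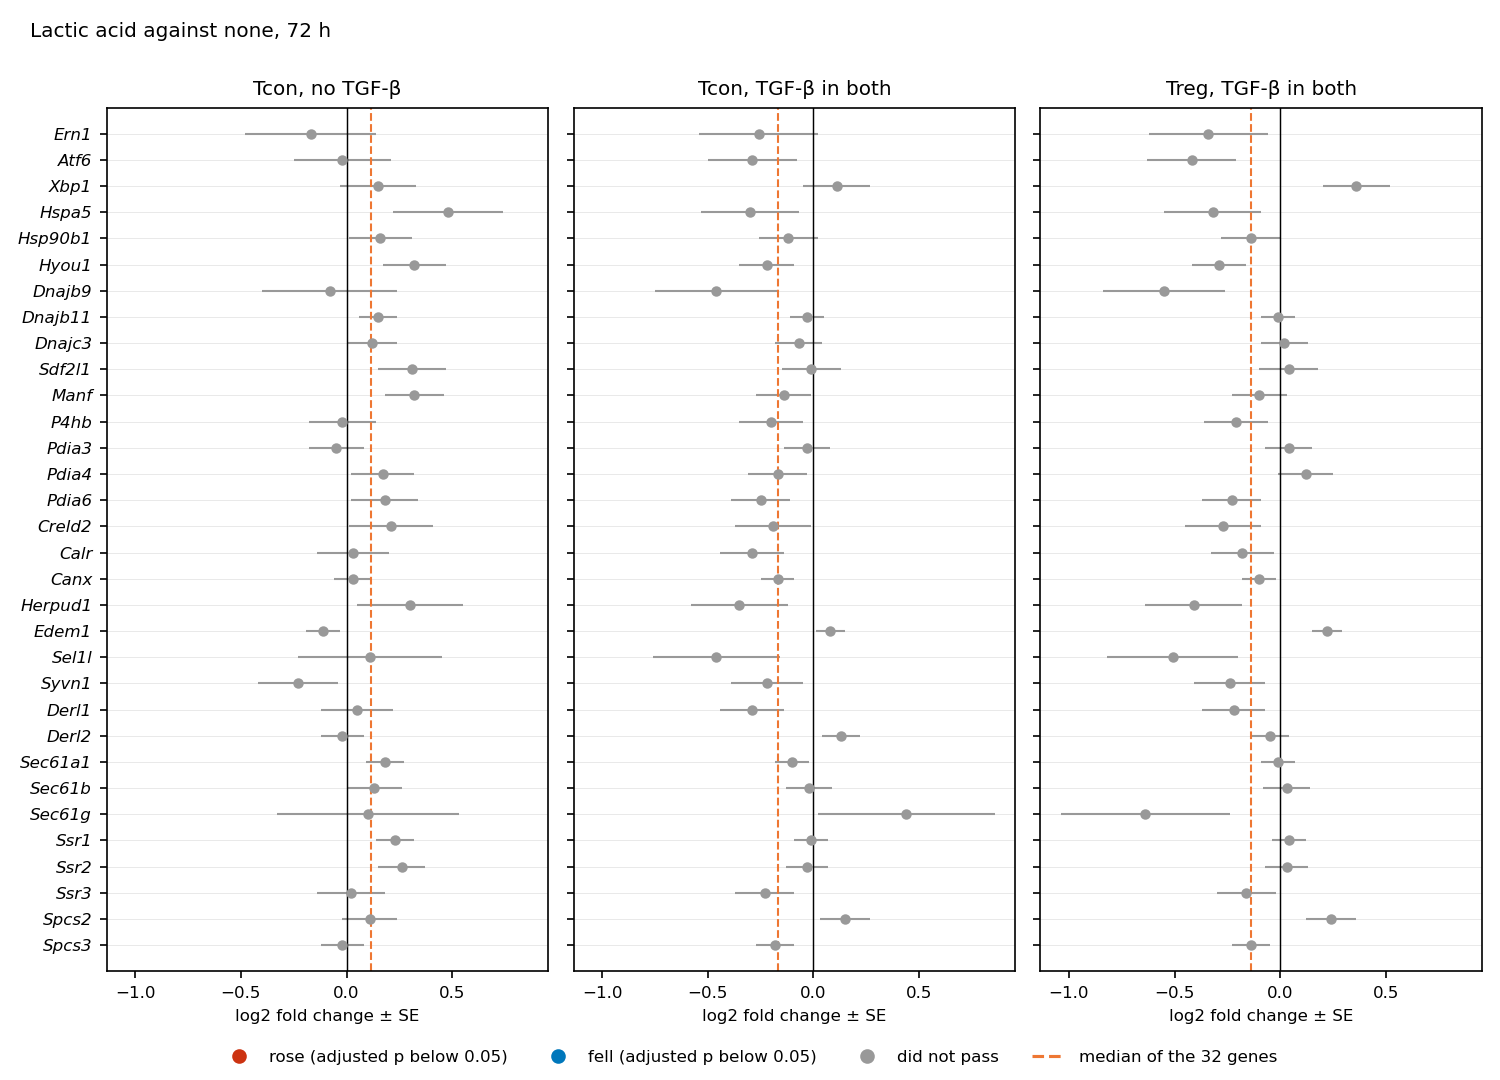
Log2 fold change (± SE, without the replicate block) of each of the 32 genes with lactic acid against without it at 72 h, in Tcon without TGF-beta, Tcon with TGF-beta and Treg with TGF-beta; no gene passed the threshold in this fit, so all points are grey, and the dashed line is the median of the 32. The medians are 0.12, -0.17 and -0.14.

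Whether the effect of lactic acid differed with TGF-beta was tested as an interaction. At 24 h 0 of 32 were called (0% of all genes; 0 with an unadjusted p under 0.05; 0 by DESeq2), and the 2 smallest p-values were those of Ssr2 (0.21 ± 0.14 SE, edgeR adjusted p = 1) and Sec61b (0.22 ± 0.16 SE, edgeR adjusted p = 1). At 72 h 0 were called (0.104% of all genes; 4 with an unadjusted p under 0.05; 0 by DESeq2), with a median of -0.26, the smallest p-values being those of Hyou1 (-0.54 ± 0.20 SE, edgeR adjusted p = 0.483) and Sec61a1 (-0.29 ± 0.12 SE, edgeR adjusted p = 0.553). With the block 8 were called, all with a more negative effect of lactic acid when TGF-beta was present (4.54% of all genes called): Hspa5, Hyou1, Manf, Pdia6, Calr, Herpud1, Sel1l and Derl1. Of these Hspa5 had the largest difference, at -0.84, adjusted p = 0.00956 with the block and -0.79 ± 0.35 without it. The effect of lactic acid in Treg was not shown to differ from that in Tcon: 0 of 32 were called (0% of all genes; 0 with an unadjusted p under 0.05; 0 by DESeq2), with Sec61g (-1.07 ± 0.58) and Pdia4 (0.28 ± 0.19) having the smallest p-values.

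No ER gene passed the threshold between Treg and Tcon of the same medium, and Xbp1 came closest among the well-measured ones. Without lactic acid 0 of 32 were called (0.216% of all genes; 0 with an unadjusted p under 0.05) by edgeR and 0 by DESeq2, with a median of 0.04. The smallest p-values were those of Sec61g (0.73 ± 0.40 SE, edgeR adjusted p = 0.996) and Xbp1 (260.0, 338 and 355 CPM in Tcon and 253, 440.4 and 459 CPM in Treg, 0.27 ± 0.16 SE, edgeR adjusted p = 1). Without all 6 of the 72 h replicate 1 libraries Xbp1 was called, at 0.38 (edgeR adjusted p = 0.0332; 0.918% of all genes called). With lactic acid 0 were called (2.55% of all genes; 2 with an unadjusted p under 0.05) by edgeR and 0 by DESeq2. Xbp1 was at 322, 329.6 and 379.6 CPM in Tcon and 394, 522 and 562 CPM in Treg (0.52 ± 0.16 SE, edgeR adjusted p = 0.095) and Pdia4, a disulfide isomerase, at 239, 182 and 172 and 273, 267 and 246 CPM (0.41 ± 0.14 SE, edgeR adjusted p = 0.135), both above in every Treg library. With the block 3 were called, all higher in Treg (12.7% of all genes called): Xbp1 (0.51, adjusted p = 0.00542), Pdia4 (0.42, adjusted p = 0.0125) and Ssr2 (0.17, adjusted p = 0.0416). Without the 6 replicate 1 libraries Xbp1 (0.61, edgeR adjusted p = 0.00012) and Pdia4 (0.54, edgeR adjusted p = 0.0181) were called (6.07% of all genes called).

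The other genes of the secretory system were examined as lists of 9 to 25 tested genes. The lists were chosen with earlier results of these data known. Of 10 genes of the PERK branch, the remaining arm of the response, 8 rose over time without additions, 8 with lactic acid, 8 with TGF-beta and 7 with both, where 27.1%, 26.5%, 28% and 24.4% of all genes were called as higher. Eif2s1, a subunit of the factor that PERK acts on, fell without additions (-0.62), with TGF-beta (-0.60) and with both (-0.50), and Dnajc3 fell with both (-0.35). Trib3, a target of the branch, had a log2 change of 4.30 ± 0.47 without additions and 4.77 ± 0.46 with TGF-beta, and Chac1 of 4.07 ± 0.40 and 4.12 ± 0.39 (edgeR adjusted p of 1.3e-07 or below for each). Nupr1 had the largest change in all 4 media, on fewer than 1 CPM at 24 h. TGF-beta at 72 h changed 2 of the 10 without lactic acid (24.5% of all genes called). These were Eif2ak3 (PERK), which rose by 0.33, and Dnajc3, which fell. With lactic acid it changed 5 of the 10 (45% of all genes called), so both counts lay near the share of all genes over both directions. Eif2ak3 rose by 0.29 (edgeR adjusted p = 0.0153). The 4 that fell were Eif2s1, Dnajc3, Atf4 (-0.92 ± 0.17) and Chac1 (-0.96 ± 0.31). This list includes Dnajc3, which is also 1 of the 32. Messenger RNA levels do not measure the activity of PERK, and whether PERK had a part in these changes was not tested.

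The lists of other secretory genes are given beside the share of all genes called with TGF-beta at 72 h, which was 24.5% without lactic acid (11.7% as lower) and 45% with it (22.5% as lower). Of 25 other folding enzymes 9 fell and 2 rose without lactic acid and 13 fell and 1 rose with it, with medians of -0.18 and -0.31. Fkbp11, a prolyl isomerase, changed by -2.63 and -3.58 and Pdia5 by -1.84 and -2.83 on the log2 scale, while Rcn1, a calcium-binding protein, rose by 1.26 and 1.48. Of 25 targeting, translocation and glycosylation genes 6 fell and 1 rose without lactic acid and 16 fell and 2 rose with it. Rpn1 of the oligosaccharyl transferase changed by -0.77 and -1.07 and Ostc by -0.50 and -0.84. Of 22 other degradation genes 5 fell and 1 rose, then 7 fell and 4 rose, a share near that of all genes; Selenos (-0.98 and -1.32) and Vcp (-0.69 and -0.93) had the largest changes. Of 17 ER export genes 4 fell and 1 rose, then 8 fell and 1 rose, also near that share over both directions; the 1 was Sec24a, a cargo adaptor of COPII vesicles, at 0.57 and 1.10, and Lman1, a cargo receptor, was at -0.72 and -0.99. Of 9 other stress sensors and their proteases 1 rose and 0 fell, then 2 rose and 0 fell, with Mbtps1, the protease that cuts ATF6, rising by 0.41 and 0.45.

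The chaperones of the cytosol and mitochondria, which are not part of the ER, were set beside them. Of 17 tested, 6 fell and 0 rose with TGF-beta at 72 h without lactic acid and 15 fell and 0 rose with it (11.7% and 22.5% of all genes called as lower), with medians of -0.47 and -0.72. Hspd1, a mitochondrial chaperonin, was at -1.08 and -1.61. At 24 h 4 fell in each medium (3.35% and 4.38% of all genes called as lower), among them Hsp90aa1 (-0.50 and -0.53), so some of this list already fell at the earlier time. Between the times, with 27.1% of all genes called as higher and 18.4% as lower without additions and 26.5% and 20.1% with lactic acid, 3 of the 17 rose and 7 fell without additions and 3 rose and 4 fell with lactic acid.

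The genes with a stress element or ERSE-II in the promoter window were set beside those with a window but neither motif, as a description. Of the 10 with a motif, 8 fell with TGF-beta at 72 h without lactic acid and 10 with it (11.7% and 22.5% of all genes called as lower), with medians of -0.73 and -1.03 (range with lactic acid, -1.71 to -0.35). Of the 15 without, 7 and 8 fell, with medians of -0.39 and -0.54 (range with lactic acid, -1.21 to 0.37). Over time without additions 10 of 10 and 13 of 15 rose (27.1% of all genes called as higher), with medians of 1.12 and 0.90. Canx, with an element, had the smallest fall of the 10, and Sdf2l1, without either motif, fell by 1.21, so the motifs did not sort the genes completely. For 7 genes no window was matched: Atf6, Hyou1, Manf, Derl1, Sec61a1, Ssr2 and Spcs3.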

How the data were processed

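Polyadenylated RNA of 29 Tcon and Treg libraries was sequenced as 65-base single reads from stranded libraries, per the labels' protocols. The deposited counts are whole reads per Ensembl gene, made by the authors with STAR 2.7.3a and HTSeq 0.12.4 on GRCm39, per the submitters' processing notes; the strand setting is not given in the sources used here. Reads without a feature (5.72 to 11.2% of the entries per library), ambiguous reads (1.01 to 1.13%) and low-quality reads (13.3 to 17%) were left out. Reads from overlapping or near-identical genes may be split or lost in such counting.

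Symbols were matched to Ensembl identifiers through a table of gene names and RefSeq synonyms (52081 of 55414 identifiers named). All libraries were fitted together by group with edgeR 4.0.16 (R 4.3.3): TMM scaling, filterByExpr (14375 genes kept), quasi-likelihood tests and Benjamini-Hochberg adjustment over those genes, at 0.05. The test was checked on simulated data. The fits were repeated with the compared groups alone, with each library left out, without the filter, with RLE scaling, with DESeq2 1.42.0, and with the replicate number as a block within each time point. The numbers were taken to pair the libraries within a time point because every same-numbered pair there correlated above 0.1 in its deviations from the group means (0.12 to 0.77 where 3 numbers were shared), although some pairs with different numbers reached 0.33, above the lowest same-numbered value of their comparison. Where 2 numbers were shared at 72 h, same-numbered pairs were at 0.42 to 0.72 and others at up to 0.51. Between times same-numbered pairs were at -0.06 to 0.11, and at 0.11 and 0.15 without additions, where 2 numbers were shared. The block takes the spread between replicates out of the error of a comparison of times, so its p-values are not given there. Values per library were fixed for 8 genes, and for each comparison the genes named were the called ones with the largest changes or, with none called, the 2 with the smallest p; the other genes named to fill a role were chosen after their values were seen. The members and lists were chosen with earlier results of these data known.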

Additional observations from a re-analysis of the deposited data

Results flagged for a closer look

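The effect of TGF-beta in Tcon differed between 24 and 72 h by the interaction test (edgeR, adjusted p under 0.05) for the genes listed here, with the 72 h effect minus the 24 h effect in log2 in parentheses. Without lactic acid these were Dnajb11 (-0.53), Dnajc3 (-0.74), Manf (-0.87), Pdia3 (-0.57), Pdia4 (-0.68), Pdia6 (-0.98), Creld2 (-1.21), Syvn1 (-1.17) and Ssr2 (-0.63). With lactic acid in both arms they were Atf6 (-1.10), Hspa5 (-1.46), Hsp90b1 (-0.84), Hyou1 (-1.21), Dnajb11 (-0.73), Dnajc3 (-0.93), Sdf2l1 (-0.86), Manf (-1.39), Pdia3 (-0.59), Pdia4 (-1.13), Pdia6 (-1.50), Creld2 (-1.66), Calr (-0.96), Herpud1 (-1.31), Syvn1 (-0.97), Derl1 (-0.73), Sec61a1 (-0.35), Sec61b (-0.84), Ssr1 (-0.52), Ssr2 (-1.13) and Ssr3 (-0.82). All these differences are negative.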

How the results depend on the processing

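Reversals were looked for only in the genes picked by rule in each comparison. These were the called genes with the largest changes, all called genes of an interaction or, with none called, the 2 with the smallest p. None of their log2 fold changes reversed under any alternative that was run. With the replicate number as a block within each time point, the count of ER genes called was 1 for lactic acid at 72 h without TGF-beta, 7 with TGF-beta in Tcon, 12 in Treg, 7 for TGF-beta at 24 h, 6 for it with lactic acid, 3 for Treg against Tcon with lactic acid, 8 for the lactic acid by TGF-beta interaction at 72 h and 19 for the TGF-beta by time interaction without lactic acid. In the other comparisons the block kept the count within 1.5 times. Without the 72 h replicate 1 libraries, a setting chosen after seeing the data, the counts were 3 and 2 for lactic acid with TGF-beta in Tcon and Treg, and 1 and 2 for Treg against Tcon without and with lactic acid. With the compared groups fitted alone, TGF-beta at 24 h gave 7 and 4 genes without and with lactic acid, and TGF-beta at 72 h without lactic acid gave 8. RLE scaling gave 1 gene for TGF-beta at 24 h with lactic acid, and no filter on low counts gave 1 there, 1 for Treg against Tcon with lactic acid and 5 for the TGF-beta by time interaction without it.

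Leaving out 1 library at a time gave 0 to 1 genes for lactic acid in Treg, 1 to 2 for TGF-beta at 24 h in either medium, 12 to 21 for TGF-beta at 72 h, 24 to 26 for it with lactic acid, and 0 to 1 for Treg against Tcon with lactic acid. Over time it gave 23 to 29 without additions, 28 to 29 with lactic acid, 12 to 14 with TGF-beta and 10 to 12 with both, and for the TGF-beta by time interaction 3 to 9 without and 16 to 23 with lactic acid. The lowest values, 12 and 3, came without the 72 h replicate 1 library that had no additions. Of 653 log2 fold changes of named genes recomputed this way 591 kept their side of the threshold, 60 lost the call and 2 gained it, and DESeq2 kept 74 of 76. Depth limits Sec61g, at 0.314 to 1.55 CPM.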
